A study of Homo sapiens with 6 samples.

Results

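Solute carriers are the membrane proteins that move amino acids, sugars, nucleotides, metals and other small molecules across the cell surface and the membranes of organelles. The arrays held probes for 365 genes whose symbol begins with SLC and a digit, leaving aside SLC7A11, SLC3A2, SLC7A5 and SLC7A1, and 143 of these genes were detected. A gene counted as detected when its probe had a detection p-value under 0.01 on both duplicates of any group, and the brightest such probe stood for the gene. The other 222 were not detected by that rule and are not described further. The 143 genes are part of 8018 genes detected in the same way among 18774 genes on the arrays. The choice rests on signal and not on a difference between groups, except that a gene detected in 1 group only had to be brighter there. Of the 143, 139 carry a carrier name. The other 4 matched only by their letters and are SLC2A4RG, a transcription factor, SLC4A1AP, SLC9A3-OT1, a long noncoding RNA, and SLC71A3P, a pseudogene. They stand in the counts over 143 genes and in none of the family counts.

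The cells were HEK293T, which derive from human embryonic kidney and express the large T antigen of SV40. The study compared 2 arrays of untransfected control cells with 2 arrays of cells given 2 µg and 2 arrays of cells given 4 µg of a plasmid holding the cloned cluster that encodes miR-27a between miR-23a and miR-24-2. Both arrays of a group are biological duplicates, as the labels have it. No group received an empty plasmid, so transfection itself and the cluster cannot be told apart in any comparison with the control. All 6 arrays lay on 1 chip with each group in neighbouring positions, so position and group cannot be told apart.

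Carriers are grouped into families by sequence, and most families handle one kind of substrate. The SLC25 family sits in mitochondria, and the SLC35 family includes carriers that bring nucleotide sugars into the Golgi and endoplasmic reticulum. SLC2 carries glucose and related sugars, and SLC38 and SLC1 carry neutral amino acids and glutamate. SLC39 proteins bring zinc into the cytosol and SLC30 proteins take it out. In cultured cells several amino acid carriers belong to the response to amino acid shortage and endoplasmic reticulum stress that runs through the transcription factor ATF4. A microRNA pairs with messenger RNAs mainly through its seed and usually lowers their level.

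The 3 main mature microRNAs that the cluster is known to give are shown because the plasmid is what was varied. Their sequences are those of RefSeq on GRCh38.p14, written 5′ to 3′ with the seed, bases 2 to 8, in capitals. The 3 seeds differ from each other, and the microRNAs themselves were not measured in the values used here.
hsa-miR-23a-3p (chr19:13836595-13836615, minus strand): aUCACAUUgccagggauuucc
hsa-miR-27a-3p (chr19:13836447-13836467, minus strand): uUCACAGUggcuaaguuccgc
hsa-miR-24-3p (chr19:13836289-13836310, minus strand): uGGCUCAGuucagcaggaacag

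The median probe was read from 40 beads, and among the probes of the 143 carriers the fewest beads on any array was 18. Levels below are normalized log2 signals from the neqc function of limma, which hold for 1 probe across arrays and not between genes. Between 9278 and 10371 of 48701 probes were detected on each array. Of 7 markers of HEK293T cells, 6 were tested and PAX2 was detected on 0 arrays. Of the markers of other cells, PTPRC, CD3E, LYZ, COL1A2, DCN, PDGFRB, APOA1 and TTR were detected on 0 arrays, CD68 on all 6, ALB on 5, and COL1A1 and LUM on 4 each. At 2 µg against control the HEK293T markers KRT8, NEFL and VIM fell and LIN28B rose, and KRT8 stood at 9.37 and 9.51 at 2 µg against 10.50 and 10.74 in the control. KRT8 and NEFL were also lower at 4 µg, by 0.60 and 1.85 (adjusted p = 0.0129 and 0.000255). CD68 rose by 0.79 at 2 µg and 0.74 at 4 µg (adjusted p = 0.00332 and 0.0103), COL1A1 fell by 0.99 and 0.87 (adjusted p = 0.000428 and 0.00268), and LUM fell by 0.73 at 2 µg (adjusted p = 0.00192), while ALB was not called. The part of these marker changes in the carrier results was not tested. In RNA from whole cultures, fewer cells that use a gene and less of its RNA per cell cannot be told apart.

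Among the 143, which were chosen by detection, 120 were detected on all 6 arrays and 23 on fewer. Of all 8018 tested genes, 6820 were detected on all 6. Detection on 0 of 2 control arrays occurred for 6, namely SLC43A1, SLC52A3 and SLC7A13, which were detected on both arrays at 4 µg and on neither at 2 µg, SLC30A2, detected at 2 µg only, and SLC4A7 and SLC45A3. In all, 13 entered through a single group and so had to be brighter in it. The carriers nearest the limit on its inner side were SLC30A2, SLC4A7 and SLC52A3, whose weaker array in their best group had a detection p-value of 0.00946. Just outside were SLC15A2 and SLC25A18 at 0.0109 and SLC22A4 at 0.0175. At that edge a signal of 237.3 and 222.2 intensity units for SLC30A2 at 2 µg stood against 201.2 and 190.2 in the control. Outside the limit SLC25A18 had 214.9 and 225.1 intensity units at 4 µg, close to the 2 µg signals of SLC30A2.

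Set against the control, the 2 µg cultures show which carriers differed in cells given the lower amount of plasmid. At an adjusted p under 0.05, 22 carriers were higher and 31 were lower, which is 37.1% of the 143, against 41.6% of all 8018 tested genes (21.8% higher and 19.8% lower). The share of carriers called was thus close to that of genes in general. Among the 120 detected on every array, 15 were higher and 27 lower, where 40.4% of the genes so detected were called. The median log2 change was -0.06 over the 143 carriers and 0.03 over all tested genes, while single carriers ranged from -1.97 to 1.37. The changes therefore ran in both directions and centred near 0.

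**Figure D1:**
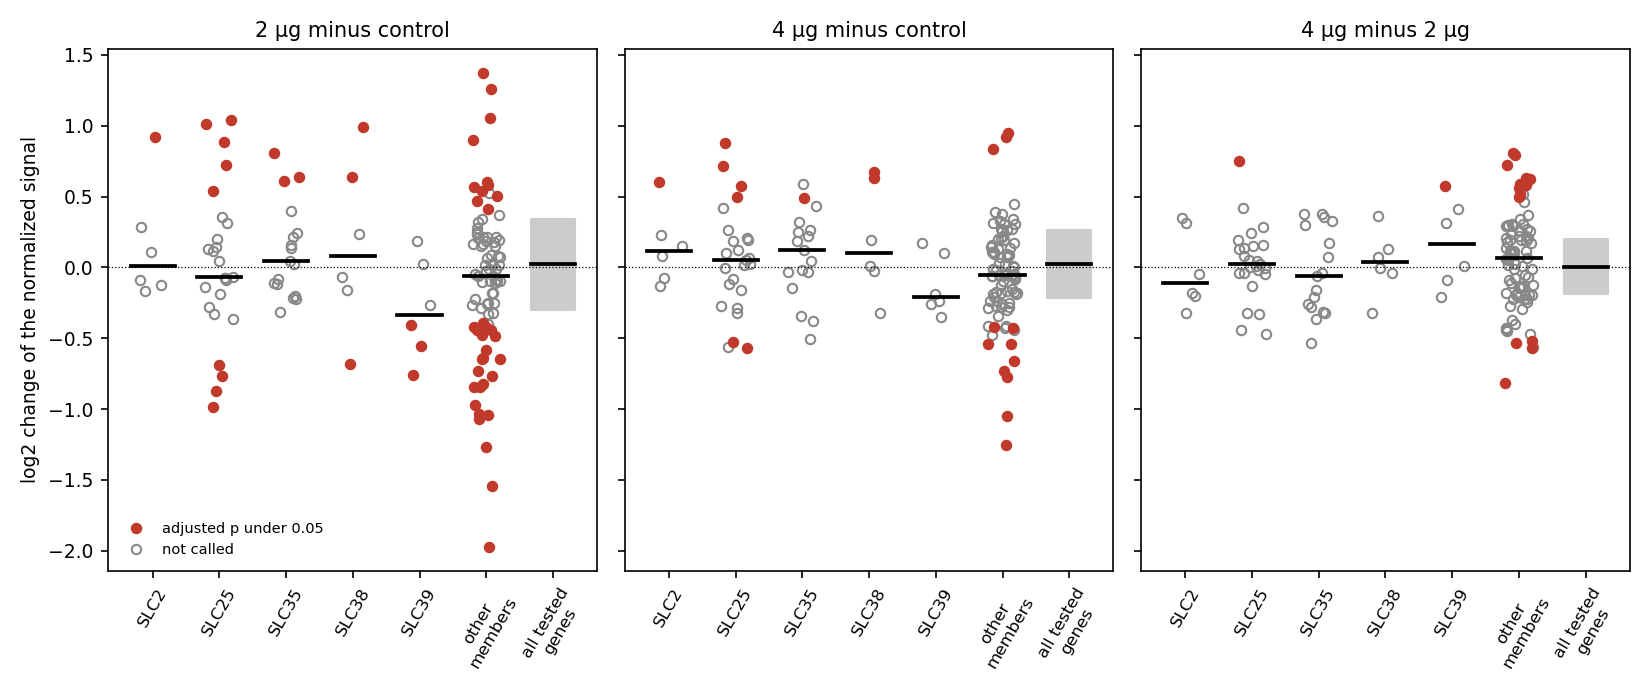
Log2 change of the normalized signal (vertical axis) of each detected carrier by family, for 2 µg minus control, 4 µg minus control and 4 µg minus 2 µg (n = 2 arrays a group). Filled points have an adjusted p under 0.05, open points do not, black lines are medians, and the grey box spans the middle 50% of all tested genes. SLC39 lies mostly below 0 at 2 µg, with a median of -0.34, while SLC25 spreads both ways from -0.98 to 1.04.

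Calls at 2 µg are given here for several families by direction. Of 25 SLC25 carriers detected of 44 on the arrays, 5 rose and 4 fell at 2 µg, and of those detected on all 6 arrays 3 rose and 3 fell. Of 17 SLC35 carriers of 29, 3 rose and 0 fell. Of 6 SLC38 carriers of 11, 2 rose and 1 fell, and of 6 SLC2 carriers of 14 only SLC2A3 rose and 0 fell. Of 6 SLC39 carriers of 14, 0 rose and 3 fell. Median log2 changes were -0.07 for SLC25, 0.04 for SLC35, 0.08 for SLC38, 0.01 for SLC2 and -0.34 for SLC39. The shares called were 36% for SLC25, 17.6% for SLC35, 50% for SLC38, 16.7% for SLC2 and 50% for SLC39. Among all tested genes 41.6% were called. No family was tested against another, so these counts describe each family by itself.

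The largest rise among carriers at 2 µg was that of SLC41A2, a magnesium transporter. It stood at 8.61 and 8.70 on the 2 µg arrays, against 7.47 and 7.10 on the control arrays, a log2 difference of 1.37 (SE 0.15, 2.59-fold, adjusted p = 0.000103). Its family members SLC41A1 and SLC41A3 differed by 0.02 and 0.21 with no call. SLC30A1, which pumps zinc out of the cell, and SLC6A9, the plasma membrane glycine carrier GLYT1, came next and are described with their groups below. Both were detected on 1 of 2 control arrays and entered the 143 through the plasmid groups, as did SLC25A20, SLC25A38, SLC22A15 and SLC45A3, which favours a rise for all of these. Non-overlap between the arrays of the groups was a condition for the 10 largest rises and is no result. Of all tested genes 69.6% showed it.

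**Figure D2:**
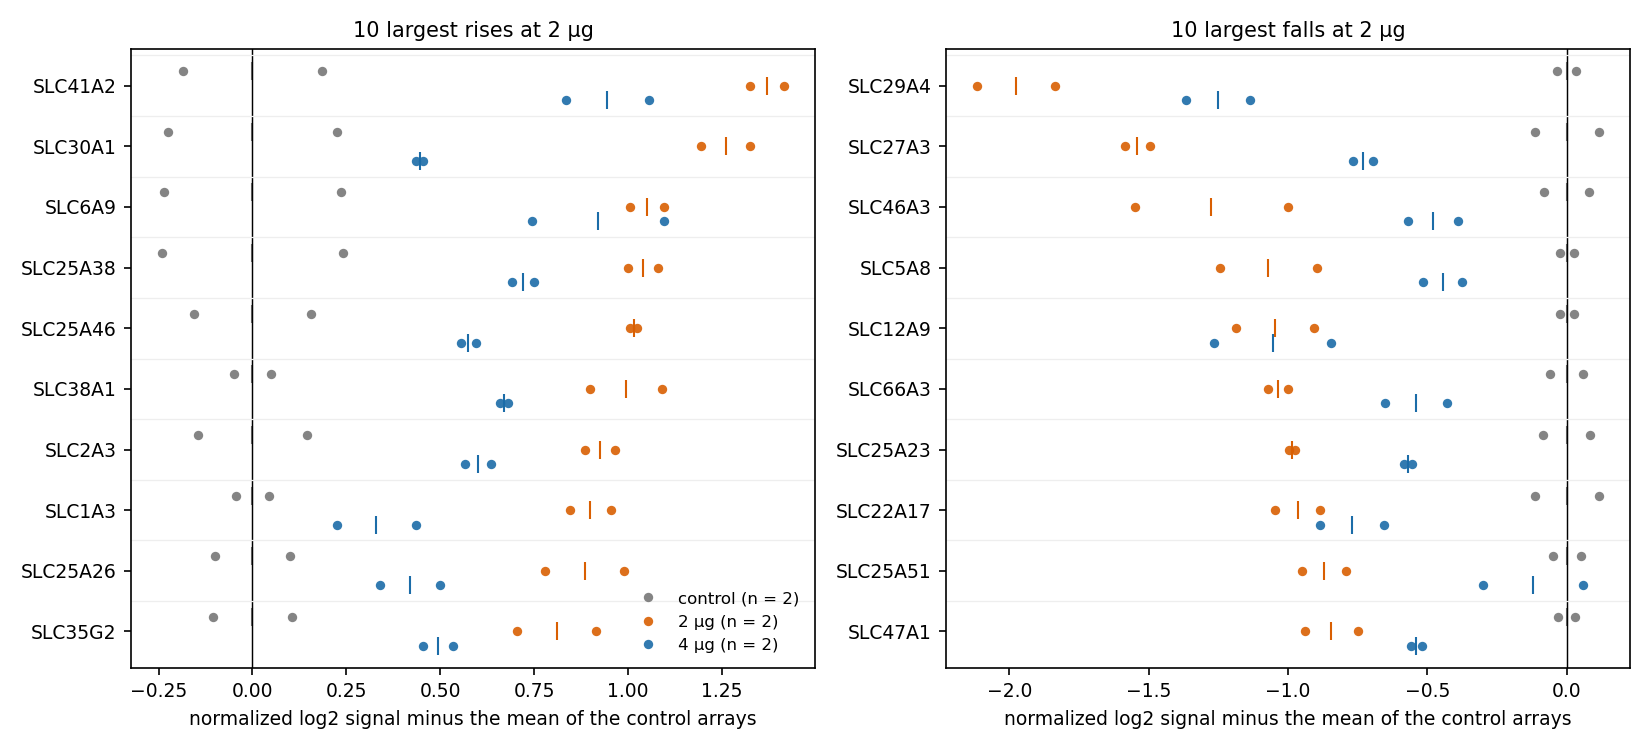
Normalized log2 signal of each array minus the mean of the control arrays (horizontal axis) for the carriers with the 10 largest rises (left) and the 10 largest falls (right) at 2 µg. Grey points are control, orange 2 µg and blue 4 µg arrays, with ticks at the means of 2 arrays. The 4 µg arrays mostly lie between the other groups, and SLC29A4 at 2 µg lies lowest, with a mean difference of -1.97.

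The largest fall was that of SLC29A4, a plasma membrane carrier of monoamines. It stood at 6.51 and 6.79 at 2 µg, where 1 of 2 arrays detected it, against 8.66 and 8.59 in the control, a 3.92-fold fall (log2 difference -1.97, SE 0.14, adjusted p = 1.04e-05). SLC27A3, a fatty acid transport protein with acyl-CoA synthetase activity, stood at 8.34 and 8.25 at 2 µg against 9.95 and 9.72 in the control, a 2.91-fold fall (adjusted p = 2.7e-05). SLC46A3, a lysosomal carrier, stood at 6.32 and 6.87 at 2 µg, with 1 of 2 arrays detecting it, against 7.95 and 7.79 in the control (2.41-fold, adjusted p = 0.000372). Arrays that did not overlap were a condition for the largest falls too and are no result, as 69.6% of all tested genes showed this. SLC5A8, a sodium-coupled carrier of short monocarboxylates, SLC12A9, of the cation and chloride cotransporter family, and SLC66A3 fell by 1.07, 1.04 and 1.04 on the log2 scale, with adjusted p-values of 0.000342, 0.000679 and 0.00023.

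Mitochondrial carriers of the SLC25 family moved both ways at 2 µg. SLC25A38, which brings glycine into mitochondria for haem synthesis, stood at 7.41 and 7.33 at 2 µg against 6.09 and 6.57 in the control (log2 difference 1.04, SE 0.16, adjusted p = 0.000642), and 1 of 2 control arrays detected it. SLC25A46, an outer membrane protein linked to the shape of mitochondria, stood at 10 and 9.98 at 2 µg against 9.13 and 8.82 in the control (1.02, SE 0.14, adjusted p = 0.000315). SLC25A26, which imports S-adenosylmethionine, stood at 7.58 and 7.37 against 6.49 and 6.69 in the control (0.89, SE 0.14, adjusted p = 0.000748). That the groups did not overlap was a condition for naming these carriers among the largest rises. SLC25A20, the carnitine and acylcarnitine carrier, rose by 0.73 (adjusted p = 0.0127) and SLC25A36, a pyrimidine nucleotide carrier, by 0.54 (adjusted p = 0.0112). Without control replicate 1 those 2 calls were lost, with adjusted p = 0.092 for SLC25A20 and 0.079 for SLC25A36. Without 2 µg replicate 2 SLC25A20 reached 0.0553, and without 2 µg replicate 1 SLC25A36 reached 0.051.

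Falls in the family were SLC25A23, a calcium-dependent carrier of ATP-Mg and phosphate, SLC25A51, the mitochondrial carrier of NAD+, SLC25A39, a mitochondrial glutathione carrier, and SLC25A1, the citrate carrier. SLC25A23 stood at 10.61 and 10.59 at 2 µg against 11.67 and 11.50 in the control, a 1.98-fold fall (adjusted p = 0.000221). SLC25A51 stood at 11.43 and 11.59 against 12.33 and 12.43 in the control, a 1.83-fold fall (adjusted p = 0.00118). SLC25A39 stood at 10.20 and 10.19 against 10.92 and 11 in the control, a 1.70-fold fall (adjusted p = 0.000996). For SLC25A23 and SLC25A51 groups that did not overlap were a condition for naming them among the largest falls. SLC25A1, named after its values were seen, was detected on 1 of 2 arrays at 2 µg, where it stood at 6.59 and 5.81 against 7.02 and 6.74 in the control (adjusted p = 0.0275). It entered the 143 through the control arrays alone and so had to be brighter there. The remaining 16 of the family passed no test at 2 µg, among them the phosphate carrier SLC25A3 and the adenine nucleotide carriers SLC25A4 and SLC25A5, chosen here as familiar members after their values were seen, with log2 differences of -0.14, 0.04 and -0.07.

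Promoters from RefSeq (GRCh38.p14, 250 bases before to 50 after each listed start) were matched for 120 of the 143 carriers, and a gene counts as holding a motif if any of its listed starts does. The palindrome CACGTG, the E-box letters read alike on both strands, occurred in the promoters of 25 of 120 carriers, 20.8%, and in 13.5% of tested genes with a promoter. Among SLC25 carriers with a promoter it occurred in 4 of the 5 that rose at 2 µg, 1 of the 4 that fell and 2 of the 14 not called. The stretches around the match are shown for these 7 genes with the motif in capitals, so that carriers on both sides of the comparison can be read together. The motif was looked at with the changes known, the counts carry no test, and a match in the letters says nothing of binding. SLC25A26 holds 2 matches.
SLC25A26 (chr3:66220924-66221009, plus strand): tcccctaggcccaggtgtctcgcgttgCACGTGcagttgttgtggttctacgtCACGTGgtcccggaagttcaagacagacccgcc
SLC25A36 (chr3:140941666-140941725, plus strand): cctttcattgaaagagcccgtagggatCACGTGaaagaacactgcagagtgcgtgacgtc
SLC25A38 (chr3:39383299-39383358, plus strand): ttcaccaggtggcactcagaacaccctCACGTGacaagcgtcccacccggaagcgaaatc
SLC25A46 (chr5:110738933-110738992, plus strand): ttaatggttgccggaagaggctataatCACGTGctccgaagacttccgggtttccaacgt
SLC25A51 (chr9:37904154-37904213, minus strand): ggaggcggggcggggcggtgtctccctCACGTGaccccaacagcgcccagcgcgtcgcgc
SLC25A13 (chr7:96322220-96322279, minus strand): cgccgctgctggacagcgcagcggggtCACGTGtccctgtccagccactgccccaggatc
SLC25A22 (chr11:795403-795462, minus strand): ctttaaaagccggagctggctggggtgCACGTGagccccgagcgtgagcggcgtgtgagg

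Of the 15 detected carriers of amino acids outside the neurotransmitter families, 4 rose and 2 fell at 2 µg, 40% called against 41.6% of all tested genes, a share near the background. SLC38A1, a glutamine carrier of the system A type, stood at 12.26 and 12.07 at 2 µg against 11.12 and 11.22 in the control (log2 difference 0.99, SE 0.13, 1.99-fold, adjusted p = 0.000238). SLC1A3, the glutamate carrier EAAT1, stood at 10.07 and 9.96 at 2 µg against 9.16 and 9.07 in the control (0.90, SE 0.13, adjusted p = 0.000502). SLC6A9 belongs to a neurotransmitter family and is not one of these 15. It stood at 7.39 and 7.30 at 2 µg against 6.53 and 6.06 in the control (1.05, SE 0.18, adjusted p = 0.00102). All of these are among the largest rises, for which arrays that did not overlap were a condition. Glycine carriers of the plasma membrane (SLC6A9) and of mitochondria (SLC25A38) were both higher. Neither was detected on both control arrays, and each met the detection limit through the plasmid groups only. That favours a rise for both, so their shared direction is no independent evidence.

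SLC38A2, another system A carrier that amino acid shortage is known to raise, stood at 12.09 and 12.08 at 2 µg against 11.57 and 11.34 in the control (0.64, SE 0.17, adjusted p = 0.0113). SLC1A5, the glutamine carrier ASCT2, stood at 9.10 and 9.01 against 8.62 and 8.36 in the control (0.56, SE 0.14, adjusted p = 0.00756). SLC1A4, the neutral amino acid carrier ASCT1, stood at 8.19 and 7.96 against 7.69 and 7.78 in the control and did not pass (0.34, SE 0.14, adjusted p = 0.0767). Without control replicate 2 the calls of SLC38A2 and SLC1A5 were lost, with adjusted p = 0.0866 and 0.0625. SLC38A10 fell by 0.68 (adjusted p = 0.00269) and SLC7A2, an arginine and lysine carrier, by 0.42 (adjusted p = 0.0378). The call of SLC7A2 was lost without any one array except 2 µg replicate 2, and adjusted p was 0.0776 and 0.161 without control replicates 1 and 2, 0.198 without 2 µg replicate 1 and 0.0543 without either 4 µg array. SLC38A6, SLC38A7 and SLC38A9, the last a lysosomal sensor of arginine, differed by -0.07, 0.24 and -0.16 with no call.

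A list of 7 tested carriers known to respond to amino acid shortage, which includes SLC3A2, SLC7A5 and SLC7A1 for their values only, had 6 members higher and 0 lower at 2 µg. Among all tested genes 21.8% were higher and 19.8% lower. SLC3A2, the heavy chain shared by several exchangers, stood at 11.66 and 11.45 at 2 µg against 9.64 and 9.25 in the control, SLC7A5, its large neutral amino acid partner, at 12.28 and 11.93 against 10.99 and 10.86, and SLC7A1, an arginine and lysine carrier, at 12.05 and 11.82 against 11.02 and 10.64. SLC1A4 was the member not called. The list was drawn up with earlier results of these data known, so its direction is no independent evidence. For SLC6A15, a neutral amino acid carrier with 3 detected probes, the brightest differed by 0.15 with no call (adjusted p = 0.538) while a second probe differed by 0.96 (adjusted p = 0.00036) and the remaining one by 0.20. No other carrier had probes that disagreed in their call at 2 µg. At 4 µg against control a second probe of SLC44A1 was lower, at -0.51 (adjusted p = 0.0351 by limma over all detected probes). Its brightest probe, at -0.12, was not called.

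**Figure D3:**
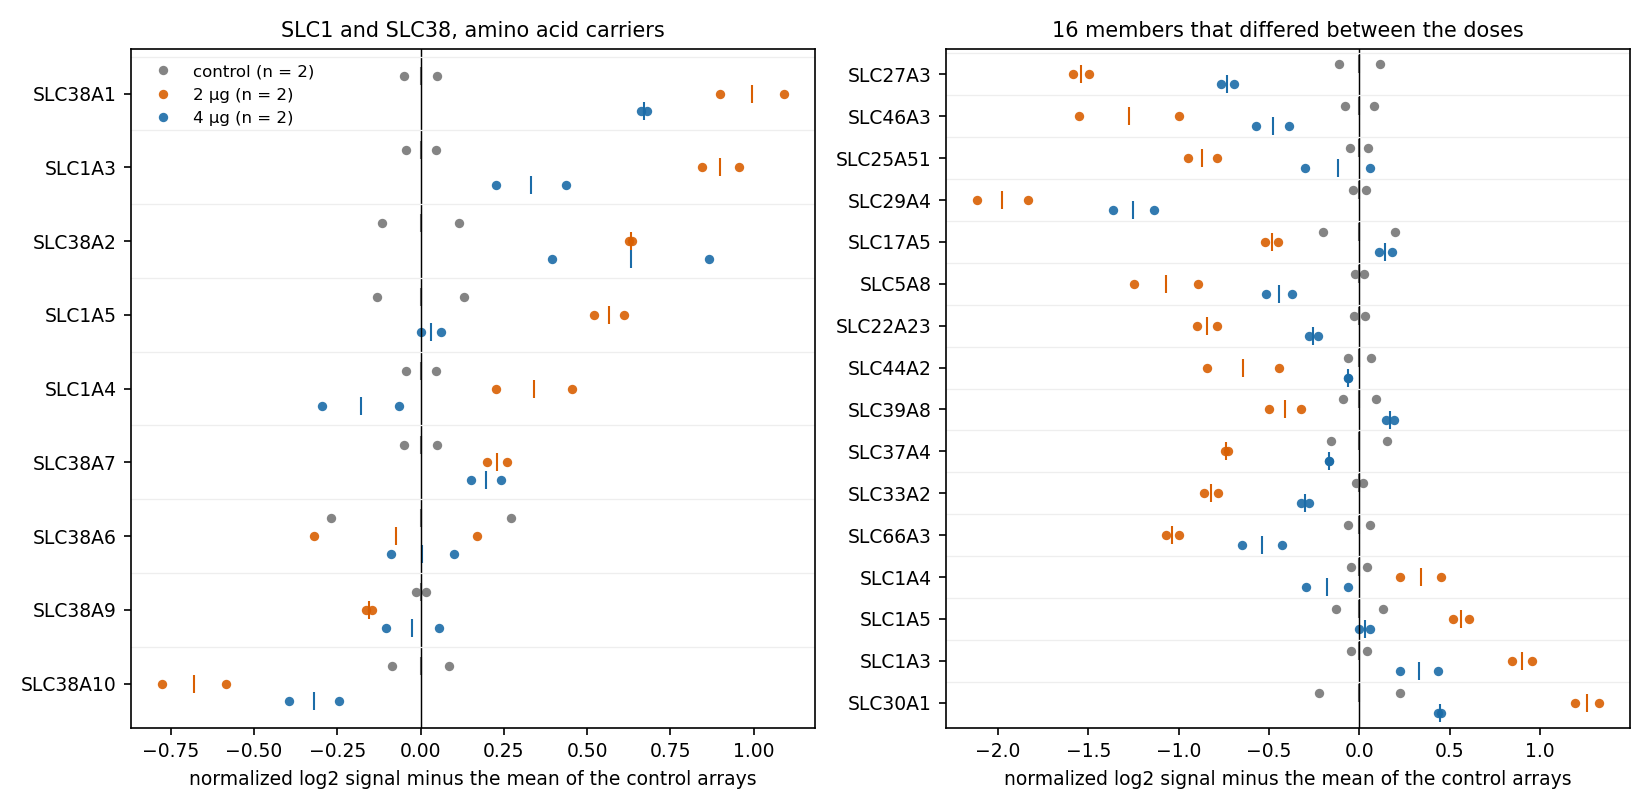
Normalized log2 signal of each array minus the mean of the control arrays (horizontal axis) for the SLC1 and SLC38 carriers (left) and for the 16 carriers that differed between 4 µg and 2 µg (right). Grey points are control, orange 2 µg and blue 4 µg arrays, with ticks at the means of 2 arrays. The 3 SLC1 carriers are highest at 2 µg, and SLC38A2 has 4 µg arrays at 11.85 and 12.32, on either side of its 2 µg arrays.

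The letters TGATGNAA, the core of the composite element through which C/EBP and ATF proteins raise genes of the amino acid response, were searched on both strands of the same promoters. They occurred in 7 of 120 carriers, 5.83%, and in 2.98% of tested genes with a promoter. They were held by 3 of 21 carriers that rose at 2 µg, 1 of 27 that fell and 3 of 72 not called. The 7 were SLC1A3, SLC1A4, SLC1A5, SLC38A1, SLC11A2, SLC25A11 and SLC39A11, so all 3 detected SLC1 carriers held them at 1 of their 2 or 3 listed starts. Promoters of the SLC1 carriers and of SLC38A1 are shown with the match in capitals because these 4 belong to the amino acid carriers described here. Relative to the start the match begins at position -220 in SLC1A3, -97 in SLC1A5, -7 in SLC1A4 and -4 in SLC38A1. SLC38A2 and SLC6A9, which also rose, held no match in these windows, and SLC39A11, which held one, fell. The AP-1 letters TGANTCA occurred in 6.67% of carriers against 7.01% of tested genes. Which start these cells use was not measured. These motifs too were looked at with the changes known, the counts carry no test, and a match in the letters says nothing of binding.
SLC1A3 (chr5:36596338-36596637, plus strand): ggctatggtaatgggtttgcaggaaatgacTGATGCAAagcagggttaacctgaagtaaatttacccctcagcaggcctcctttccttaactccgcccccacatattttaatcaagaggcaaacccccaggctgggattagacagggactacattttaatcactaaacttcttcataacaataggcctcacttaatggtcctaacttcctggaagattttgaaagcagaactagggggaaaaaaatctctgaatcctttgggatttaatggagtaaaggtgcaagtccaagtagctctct
SLC1A4 (chr2:64989149-64989448, plus strand): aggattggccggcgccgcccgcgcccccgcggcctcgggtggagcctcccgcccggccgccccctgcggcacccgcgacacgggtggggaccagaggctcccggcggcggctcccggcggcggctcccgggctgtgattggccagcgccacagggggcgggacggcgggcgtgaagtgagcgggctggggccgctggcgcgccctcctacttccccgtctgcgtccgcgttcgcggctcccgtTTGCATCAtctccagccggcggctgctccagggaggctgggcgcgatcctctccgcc
SLC1A5 (chr19:46784765-46785064, minus strand): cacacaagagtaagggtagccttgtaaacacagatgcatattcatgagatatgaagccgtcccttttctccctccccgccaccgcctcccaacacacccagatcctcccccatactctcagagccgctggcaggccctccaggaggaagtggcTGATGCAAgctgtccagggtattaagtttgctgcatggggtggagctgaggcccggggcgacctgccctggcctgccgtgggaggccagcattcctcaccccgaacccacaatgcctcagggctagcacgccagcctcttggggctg
SLC38A1 (chr12:46266467-46266766, minus strand): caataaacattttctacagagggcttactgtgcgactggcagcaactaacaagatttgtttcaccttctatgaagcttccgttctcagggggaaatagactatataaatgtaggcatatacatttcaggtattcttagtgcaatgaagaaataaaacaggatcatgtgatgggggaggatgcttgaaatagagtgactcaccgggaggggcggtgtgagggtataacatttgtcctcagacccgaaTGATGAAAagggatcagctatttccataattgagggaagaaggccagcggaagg

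Zinc carriers are given with both directions of transport side by side. At 2 µg, of 6 detected SLC30 carriers, which lower cytosolic zinc, 2 rose and 0 fell. Of 6 detected SLC39 carriers, which raise it, 0 rose and 3 fell. The shares called were 33.3% and 50%, against 41.6% of all tested genes (21.8% higher and 19.8% lower). The 2 families were not tested against each other. SLC30A1 stood at 7.83 and 7.70 at 2 µg against 6.28 and 6.73 in the control, where 1 of 2 arrays detected it (log2 difference 1.26, SE 0.16, 2.40-fold, adjusted p = 0.0002). SLC30A2, a zinc carrier of vesicles that sits at the detection limit, went undetected on both control arrays, and its 2 µg signal was at least 1.08-fold higher, with an adjusted p of 0.00505. Its entry into the 143 came through the 2 µg arrays alone, so it had to be brighter there. Neither of the 2 risers belongs to the 4 SLC30 carriers detected on all 6 arrays, of which 0 were called at 2 µg at an adjusted p under 0.05. SLC30A3 came closest, with a log2 difference of -0.40 (adjusted p = 0.0518).

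SLC39A10, a plasma membrane zinc importer, stood at 7.61 and 7.82 at 2 µg against 8.46 and 8.49 in the control (-0.76, SE 0.13, adjusted p = 0.0013). SLC39A11 stood at 6.82 and 7.09 against 7.54 and 7.46 in the control (-0.55, SE 0.14, adjusted p = 0.00887). SLC39A8, an importer of zinc and manganese, stood at 8.01 and 8.19 against 8.42 and 8.60 in the control (-0.41, SE 0.13, adjusted p = 0.0304). The groups did not overlap in these 3. They did not overlap in 4 of the 6 SLC39 carriers, against 69.6% of all tested genes, a share near the background. SLC39A8 did not pass without control replicate 2 (adjusted p of 0.157), without 2 µg replicate 1 (0.13), without either 4 µg array (0.0527), under median scaling over all probes (0.0929) and in the authors' processed values (0.0661). The call of SLC39A11 was lost without control replicate 1 (0.0535) and without 2 µg replicate 1 (0.0516). SLC39A1, SLC39A7 of the endoplasmic reticulum and SLC39A14 differed by -0.27, 0.02 and 0.19 with no call.

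**Figure D4:**
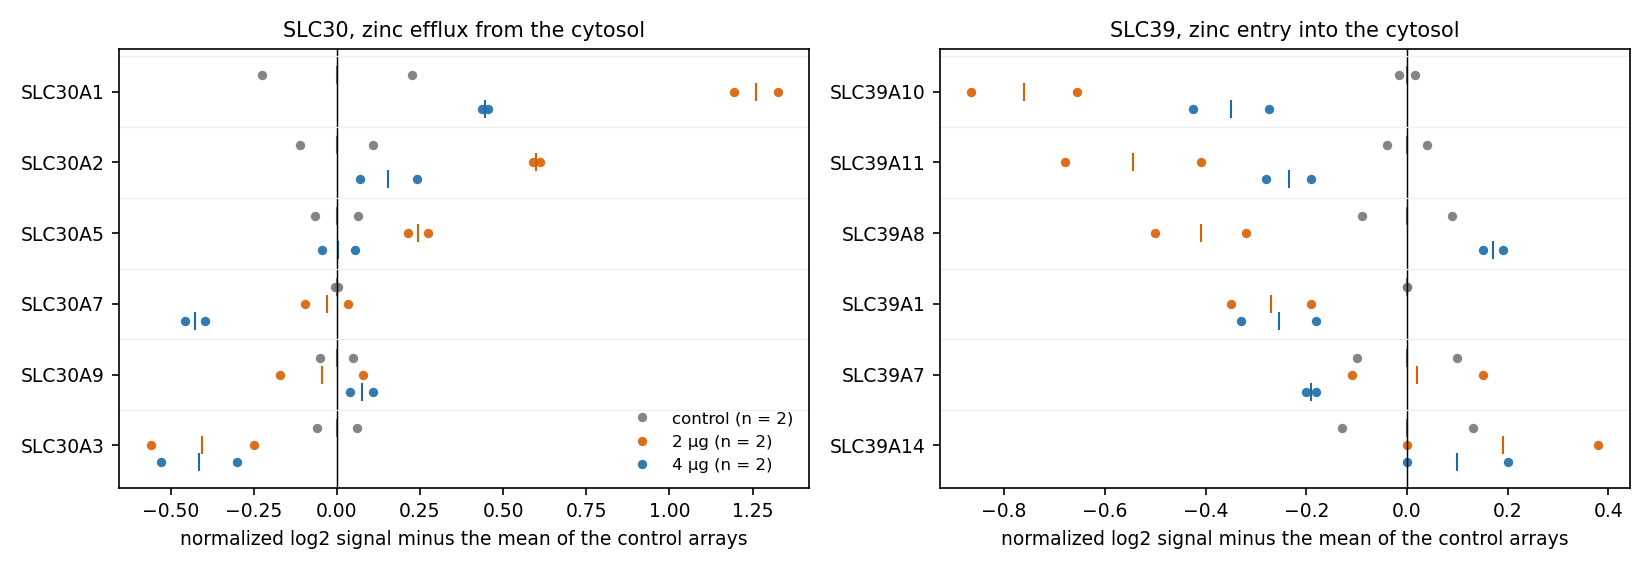
Normalized log2 signal of each array minus the mean of the control arrays (horizontal axis) for the 6 SLC30 carriers (left) and the 6 SLC39 carriers (right). Grey points are control, orange 2 µg and blue 4 µg arrays, with ticks at the means of 2 arrays, and the panels have different scales. SLC30A1 at 2 µg lies 1.26 above the control on average and SLC39A10 at -0.76, while SLC30A7 lies low at 4 µg.

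Of 4 tested genes of a zinc-responsive list, SLC30A1 rose at 2 µg, the metallothioneins MT1X and MT1F, which bind zinc and copper, fell, and MT2A was not called. MT1X stood at 10.22 and 10.14 at 2 µg against 11.31 and 11.04 in the control (adjusted p = 0.000317), and MT1F fell by 0.54 (adjusted p = 0.0116). SLC30A1 was thus higher at 2 µg while MT1X and MT1F were lower. SLC30A1 was detected on 1 of 2 control arrays and met the detection limit through the plasmid groups only, which favours a rise. These genes share a zinc-sensing transcription factor, and its part in their changes was not tested. Metallothionein genes are nearly identical in sequence, so their probes may read more than 1 of them.

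Among sugar carriers SLC2A3, the high-affinity glucose carrier GLUT3, rose at 2 µg. It stood at 14.10 and 14.02 at 2 µg against 13.28 and 12.99 in the control (log2 difference 0.92, SE 0.14, 1.90-fold, adjusted p = 0.000543). SLC2A14 is nearly identical in sequence, so the probe may read both. SLC2A1, the common glucose carrier GLUT1, differed by -0.09, SLC2A6 by 0.28, SLC2A8 by 0.11, SLC2A10 by -0.17 and SLC2A12 by -0.12, all with no call. SLC2A6 had control arrays at 10.06 and 8.85, a wide gap between duplicates, and SLC2A10 and SLC2A12 were detected on 0 of 2 arrays at 2 µg. SLC37A4, which brings glucose 6-phosphate into the endoplasmic reticulum, stood at 10.14 and 10.16 at 2 µg against 11.04 and 10.73 in the control (-0.73, adjusted p = 0.00213). A list of carriers tied to hypoxia and glucose use had 3 tested members, SLC2A1, SLC2A3 and SLC37A4, and so held 1 rise, 1 fall and 1 gene not called.

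The SLC35 family, which includes the nucleotide sugar carriers, showed 3 rises at 2 µg. That is 17.6% of its detected members called, against 41.6% of all tested genes. SLC35G2 stood at 8.92 and 9.13 at 2 µg against 8.11 and 8.32 in the control (0.81, SE 0.14, adjusted p = 0.00116). SLC35A3, which brings UDP-N-acetylglucosamine into the Golgi, stood at 10 and 9.98 against 9.36 and 9.34 in the control (0.64, SE 0.12, adjusted p = 0.0021). SLC35F2 stood at 9.41 and 8.84 against 8.59 and 8.44 in the control (0.61, SE 0.18, adjusted p = 0.0207), and its call was lost without either control array or without 2 µg replicate 1, with adjusted p = 0.0573, 0.116 and 0.138. The other 14 members had log2 differences between -0.32 and 0.40 with no call, among them SLC35A2, the UDP-galactose carrier, at 0.40 (adjusted p = 0.0904) and SLC35B2, the carrier of the sulfate donor PAPS, at -0.32 (adjusted p = 0.127). Their duplicates often lay as far apart as the groups.

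Of 6 detected carriers of organic ions and steroids 1 was higher and 4 were lower at 2 µg, where 21.8% of all tested genes were higher and 19.8% lower. SLC22A17, a receptor for lipocalin 2, stood at 7.16 and 7 at 2 µg against 8.16 and 7.93 in the control (-0.97, adjusted p = 0.000516). SLC22A23 stood at 7.61 and 7.50 against 8.37 and 8.43 in the control (-0.84, adjusted p = 0.000479), and SLC47A1, the MATE1 exporter of organic cations, at 7.17 and 7.36 against 8.14 and 8.08 (-0.84, adjusted p = 0.000582). Arrays that did not overlap were a condition for naming SLC22A17 and SLC47A1 among the largest falls, and 69.6% of all tested genes showed this. Named after their values were seen, SLC22A5, the carnitine importer, fell by 0.59 (adjusted p = 0.00739), while SLC22A15, detected on 1 of 2 control arrays, rose by 0.51 (adjusted p = 0.0148). Both choline carriers of the SLC44 family, SLC44A1 and SLC44A2, also named after their values were seen, fell by 0.64 each, with adjusted p-values of 0.0056 and 0.00678.

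Some carriers of anions and acids also fell at 2 µg. Of 6 detected carriers of bicarbonate and other anions 16.7% were called. Of 8 carriers of carboxylates and peptides it was 25%, against 41.6% of all tested genes. SLC26A6, an exchanger of chloride, bicarbonate and oxalate, stood at 8.89 and 8.57 at 2 µg against 9.51 and 9.48 in the control (-0.76, adjusted p = 0.00165). SLC17A5, the sialic acid carrier of lysosomes, stood at 12.32 and 12.25 against 12.97 and 12.57 in the control (-0.48, adjusted p = 0.0247), and without control replicate 1 it did not pass (adjusted p of 0.187), nor without 2 µg replicate 1 (0.0564) or 2 (0.0893). SLC16A4, of the monocarboxylate carrier family, was detected on 0 of 2 arrays at 2 µg and was at least 1.10-fold lower (adjusted p = 0.00311). It entered the 143 through the control arrays alone, so it had to be brighter there. SLC16A14 of the same family fell by 0.44 (adjusted p = 0.0175). The SLC16A14 call was lost without control replicate 1 (0.0554) or 2 (0.0751) and without 2 µg replicate 2 (0.071). SLC45A3, a carrier of the sucrose transporter type, went undetected on both control arrays, and at 2 µg it was at least 1.15-fold higher, with an adjusted p of 0.0217, a call lost without control replicate 1 (0.175) and without 2 µg replicate 2 (0.105). The genes called at 2 µg and not yet described, all but SLC4A1AP and SLC2A4RG named after their values were seen, rose by 0.47 for the phosphate carrier SLC20A1, 0.41 for SLC49A4 and 0.58 for SLC4A1AP. They fell by 0.82 for SLC33A2, 0.48 for the nucleoside carrier SLC29A2, 0.44 for SLC2A4RG, 0.42 for SLC61A1 and 0.39 for SLC75A1. Adjusted p over these genes lay between 0.000518 and 0.0413. The call of SLC2A4RG was lost without control replicate 1 (0.103), without 2 µg replicate 1 (0.0656) and with no background correction (0.0546), and that of SLC4A1AP without control replicate 2 (0.0535).

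Cells given the larger amount of plasmid were compared with the same control arrays. At 4 µg 11 carriers were higher and 11 lower, 15.4% of the 143, against 22% of all tested genes (11.8% higher and 10.2% lower), and the median log2 change was -0.01 over the carriers and 0.03 over all tested genes. The 22 carriers became 7 without 4 µg replicate 2, 10 without 4 µg replicate 1, 12 without control replicate 1 and 14 without control replicate 2, where between 8.68% and 11.7% of all tested genes were called. Among the 120 detected on every array 7 were higher and 9 lower, where 20.3% of the genes so detected were called. Scaling each array by the median of all probes in place of quantile normalization moved the median of all tested genes from 0.03 to 0.18, and the split of carriers was then 19 higher and 4 lower. It was 17 higher and 9 lower in the authors' processed values and 10 higher and 15 lower with scaling over probes detected on all arrays, so the balance of rises and falls at 4 µg is not settled by these data.

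SLC41A2 was again the largest rise, at 8.12 and 8.34 at 4 µg against 7.47 and 7.10 in the control (0.95, SE 0.15, 1.93-fold, adjusted p = 0.00265). SLC6A9 stood at 7.04 and 7.39 at 4 µg against 6.53 and 6.06 in the control (0.92, SE 0.18, adjusted p = 0.00593), and SLC38A1 at 11.85 and 11.83 against 11.12 and 11.22 (0.67, SE 0.13, adjusted p = 0.00585). Non-overlap of the groups was again a condition of the choice, and 65.8% of all tested genes showed it. SLC45A3, undetected on both control arrays, was at least 1.40-fold higher with an adjusted p of 0.00641. Of the SLC25 family 4 rose, namely SLC25A20, SLC25A38, SLC25A46 and SLC25A36, by 0.88, 0.72, 0.58 and 0.50 on the log2 scale (adjusted p = 0.0109, 0.0114, 0.0152 and 0.0294). SLC38A2 rose by 0.63 (adjusted p = 0.0227), SLC2A3 by 0.60 (0.0129) and SLC35G2 by 0.49 (0.0287). The calls of SLC41A2, SLC38A1 and SLC45A3 held under every alternative run. The other 8 lost theirs without 4 µg replicate 2, with adjusted p between 0.0513 and 0.224. Without 4 µg replicate 1, SLC25A38, SLC25A46, SLC25A36, SLC2A3 and SLC35G2 did not pass, with adjusted p between 0.0585 and 0.159. Without control replicate 1, SLC25A20, SLC25A38, SLC25A36, SLC35G2 and SLC38A2 did not pass (between 0.0571 and 0.157), and without control replicate 2, SLC25A36, SLC25A46, SLC2A3, SLC35G2 and SLC38A2 did not (between 0.0502 and 0.135). SLC2A3 also did not pass under median scaling over probes detected on all arrays (0.0775), nor SLC25A36, SLC35G2 and SLC38A2 with no detection filter (0.0605, 0.0576 and 0.0681).

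SLC29A4 was the largest fall at 4 µg, at 7.49 and 7.26 against 8.66 and 8.59 in the control (-1.25, SE 0.14, 2.38-fold, adjusted p = 0.000511). SLC12A9 stood at 7.72 and 8.14 against 9.01 and 8.96 in the control (-1.05, SE 0.16, adjusted p = 0.00205), SLC22A17 at 7.39 and 7.16 against 8.16 and 7.93 (-0.77, adjusted p = 0.00516) and SLC27A3 at 9.14 and 9.07 against 9.95 and 9.72 (-0.73, adjusted p = 0.00443). For these 4, groups lying clear of each other was likewise a condition of the choice. The other falls were SLC26A6 by 0.66, SLC25A23 by 0.57, SLC66A3 by 0.54, SLC47A1 by 0.54, SLC25A39 by 0.52, SLC16A4 by 0.43 and SLC30A7, a zinc carrier of the Golgi, by 0.42, with adjusted p-values between 0.00849 and 0.0421. SLC30A7 stood at 9.74 and 9.80 at 4 µg against 10.20 and 10.19 in the control, and at 2 µg it had differed by -0.03 with no call. The calls of SLC29A4, SLC12A9 and SLC27A3 held under every alternative run, and that of SLC22A17 was lost only without 4 µg replicate 2 (adjusted p = 0.0518). Those of the other 7 were lost under median scaling over all probes, with adjusted p between 0.0612 and 0.383. All 7 were lost without control replicate 1 (adjusted p between 0.055 and 0.15) and without 4 µg replicate 1 (between 0.0522 and 0.292). Without control replicate 2, SLC16A4, SLC25A39, SLC30A7, SLC47A1 and SLC66A3 did not pass (between 0.0535 and 0.11), and without 4 µg replicate 2 the 6 other than SLC66A3 did not (between 0.0518 and 0.146).

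At 4 µg against control the SLC39 family had 0 calls at an adjusted p under 0.05 and a median log2 change of -0.21, with SLC39A10 at -0.35 (adjusted p = 0.0831). Among all tested genes 22% were called, 11.8% higher and 10.2% lower. SLC30A1 stood at 6.94 and 6.96 at 4 µg against 6.28 and 6.73 in the control and did not pass (0.45, SE 0.16, adjusted p = 0.0677). Of the zinc-responsive list, MT1X fell by 0.94 (adjusted p = 0.00145) and MT2A by 0.72 (adjusted p = 0.0063). The SLC1 family had 0 calls, and SLC1A3, SLC1A5 and SLC1A4 differed by 0.33, 0.03 and -0.17 (adjusted p = 0.102, 0.892 and 0.406). The list of amino acid response carriers had 3 of 7 higher, namely SLC3A2, SLC6A9 and SLC38A2, against 11.8% of all tested genes. It was drawn up with earlier results known, and SLC6A9 entered through the plasmid groups, which favours a rise. SLC35G2 was called among the SLC35 carriers, SLC35B3 (0.59, adjusted p = 0.0536) and SLC35E3 (0.44, adjusted p = 0.0607) just missed the limit and were called under 10 and 7 of 18 alternatives, and 4 members were higher and 0 lower under median scaling over all probes and in the authors' processed values.

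The difference between the amounts of plasmid was tested directly, on the 4 µg and 2 µg arrays. At 4 µg 12 carriers were higher than at 2 µg and 4 were lower, 11.2% of the 143, against 8.79% of all tested genes (5.23% higher and 3.57% lower). Among the 120 detected on every array 10 were higher and 3 lower, where 7.55% of the genes so detected were called. Under median scaling over all probes the split was 19 higher and 1 lower, with the median of all tested genes moved from 0.00 to 0.15. These calls rest on single arrays. By limma without 4 µg replicate 1, 0 carriers were called, with 23 at an unadjusted p under 0.05, and without 4 µg replicate 2 or 2 µg replicate 1 a single carrier was called each time. The values below therefore describe these arrays more than a settled difference between the amounts.

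The 2 µg arrays enter this comparison and that of 2 µg with the control, so both rest on the same arrays, and the values of both stand in the text. SLC27A3 stood at 9.14 and 9.07 at 4 µg against 8.34 and 8.25 at 2 µg (log2 difference 0.81, SE 0.13, adjusted p = 0.00781). SLC46A3 stood at 7.30 and 7.48 at 4 µg against 6.32 and 6.87 at 2 µg (0.79, SE 0.18, adjusted p = 0.0246), and SLC25A51 at 12.44 and 12.08 against 11.43 and 11.59 (0.75, SE 0.15, adjusted p = 0.0162). Groups that did not overlap were a condition for naming these 3, and 57.3% of all tested genes showed this. SLC29A4, SLC17A5, SLC5A8, SLC22A23, SLC39A8, SLC37A4 and SLC66A3 were higher by 0.72, 0.63, 0.62, 0.59, 0.58, 0.56 and 0.50, with adjusted p between 0.0168 and 0.0455. SLC44A2 and SLC33A2, named after their values were seen, were higher by 0.58 and 0.52. Without 4 µg replicate 1 the adjusted p of SLC27A3 was 0.0656, of SLC46A3 0.0785 and of SLC25A51 0.145. Without 4 µg replicate 2 it was 0.051 for SLC27A3 and 0.139 for SLC46A3, and without 2 µg replicate 1 it was 0.105 for SLC46A3 and 0.0815 for SLC25A51. For the next 7 carriers adjusted p lay between 0.106 and 0.176 without 4 µg replicate 1, between 0.057 and 0.287 without 4 µg replicate 2 and between 0.0523 and 0.137 without 2 µg replicate 1. Without 2 µg replicate 2, SLC17A5, SLC22A23, SLC37A4 and SLC66A3 did not pass (between 0.0578 and 0.0844), and without either control array SLC5A8 (0.0501) and SLC66A3 (0.0635) did not.

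The 4 carriers lower at 4 µg than at 2 µg, by the probe that stands for each, were SLC30A1 and the 3 SLC1 members. A second probe of SLC6A15 was also lower, at -0.92 (adjusted p = 0.00559 by limma over all detected probes). Its brightest probe differed by 0.10 with no call. SLC30A1 stood at 6.94 and 6.96 at 4 µg against 7.83 and 7.70 at 2 µg (-0.81, SE 0.16, adjusted p = 0.0153). SLC1A3 stood at 9.34 and 9.55 at 4 µg against 10.07 and 9.96 at 2 µg (-0.57, SE 0.13, adjusted p = 0.0286), SLC1A5 at 8.55 and 8.49 against 9.10 and 9.01 (-0.53, adjusted p = 0.0384) and SLC1A4 at 7.67 and 7.44 against 8.19 and 7.96 (-0.52, adjusted p = 0.0485). Arrays that did not overlap were a condition for naming these 4 as the largest falls. Under median scaling over all probes none of the 3 SLC1 carriers was called, with differences of -0.43, -0.36 and -0.33 (adjusted p = 0.118, 0.198 and 0.236). With 4 µg replicate 1 left out, adjusted p was 0.0817 for SLC30A1, 0.224 for SLC1A3, 0.165 for SLC1A5 and 0.117 for SLC1A4. Without 4 µg replicate 2 the 4 values were 0.0824, 0.0867, 0.189 and 0.286, and without 2 µg replicate 1 they were 0.0758, 0.105, 0.128 and 0.177. Without 2 µg replicate 2 SLC1A3 (0.0506) and SLC1A5 (0.0658) did not pass, and without either control array SLC1A4 (0.0698) did not. SLC7A5 and SLC7A1 from the same list of amino acid response carriers stood at 10.96 and 11.09 and at 11.25 and 11.24 at 4 µg, against 12.28 and 11.93 and 12.05 and 11.82 at 2 µg, and were also called lower. SLC3A2, SLC6A9 and SLC38A2 of that list differed by -0.50 (adjusted p = 0.071), -0.13 and -0.01 with no call.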

How the data were processed

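RNA from 6 HEK293T cultures was read on Illumina Human-6 arrays, and the values used are those the authors deposited. Per the submitters' processing notes BeadStudio was used, with a version not given in the sources used here. Per the file headers the deposited table gives a mean bead intensity for each of 48701 probes, not normalized, with its standard error, the count of beads and a detection p-value. An intensity also fills the authors' processed table. Per array it ran in a straight line with the scanner value, with a mean of 238.3 on every array, as found from the values, and it was used as an alternative.

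In R 4.3.3 with limma 3.58.1, neqc subtracted a background estimated from the detection p-values, added an offset of 16, normalized by quantiles and took log2. Annotation gave 1 symbol for 23687 probes, several for 35 and none for 24979. Of the probes with 1 symbol 23651 matched a second table, with 0 symbols changed. The detection limit, a p-value under 0.01 on every array of 1 group or more, left 10021 probes, of which 8455 had 1 symbol, and 8018 genes. One fit held all 3 groups (3 residual and 7.43 prior degrees of freedom), with two-sided tests, Benjamini-Hochberg adjustment over 8018 genes and calls at an adjusted p under 0.05. Errors are standard errors of that fit with 2 arrays per group, a number that limits the precision of every value. The script was tested on simulated data. A gene undetected on every array of a group has only a bound there, and its fold is the brighter group's mean over the higher of the dim arrays' own signal and the lowest signal well above background, here the dimmest detected probe.

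The carriers and the gene lists were chosen with earlier results of these data known. The lists were amino acid response carriers, hypoxia and glucose carriers, sodium pump subunits, vacuolar proton pump subunits, ABC transporters, mitochondrial transport genes without an SLC symbol, carrier partner proteins, zinc-responsive genes and markers of HEK293T cells, haematopoietic cells, fibroblasts and hepatocytes. Genes were named by rule. Rises and falls were ranked only among called carriers whose arrays did not overlap between the groups compared. The rule took the 10 largest rises and 10 largest falls at each amount against control and 5 each between the amounts, all SLC2, SLC38 and SLC39 members, the members with the smallest p of the other families and lists, and the 3 genes on either side of the detection limit. SLC43A1, SLC41A1, SLC6A15, SLC30A3, SLC11A2, SLC25A11, SLC25A13 and SLC25A22 stand outside it and were named after their values were seen. Alternatives were other background corrections, offsets, scalings, detection filters, probe choices, sets of groups, variance models, the replicate number as a block and each array left out.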

Additional observations from a re-analysis of the deposited data

How the results depend on the processing

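Each count of called carriers was recomputed under 18 alternatives. At 2 µg against control the count of 53 stayed within 1.5 times under all of them, from 39 to 50 with 1 array left out. At 4 µg against control the count of 22 lay between 7 and 28 with 1 array left out: it was 7 without 4 µg replicate 2, 10 without 4 µg replicate 1, 12 without control replicate 1 and 14 without control replicate 2. For 4 µg against 2 µg the count of 16 lay between 0 and 13 with 1 array left out, with 0 without 4 µg replicate 1 and 1 without 4 µg replicate 2 or without 2 µg replicate 1. It was 3 with no detection filter, where 18774 genes were tested. The cause of the other shifts was not tested beyond the smaller number of arrays. Of the 73 named carriers, 42 were called at 2 µg and 29 of them under every alternative. At 4 µg 22 were called and 6 of them under every alternative, and between the amounts 14 and 0. No call of a named carrier turned its direction in any alternative run.

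With the replicate number as a block 54 carriers were called at 2 µg, 23 at 4 µg and 16 between the amounts. The same-numbered arrays did not deviate together, with correlations of deviations of -0.0407 for 2 µg and control, -0.0934 for 4 µg and control and 0.114 for 4 µg and 2 µg, so the numbers are names and not a pairing. Under the block SLC16A4 did not pass at 4 µg (adjusted p = 0.0532).

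Signals near background limit the values of the 23 carriers detected on fewer than 6 arrays. Duplicates, 1 chip and no empty-plasmid culture limit all values.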

Other observations

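Transport genes outside the solute carriers were looked at by lists drawn up with earlier results of these data known. At 2 µg against control all 3 tested partner proteins of carriers fell, where 19.8% of all tested genes were lower. BSG, the chaperone of monocarboxylate carriers, stood at 8.53 and 8.30 at 2 µg against 9.17 and 9.02 in the control (adjusted p = 0.00304), ARL6IP5, which binds the glutamate carrier SLC1A1, at 10.12 and 10.23 against 11.28 and 11.11 (adjusted p = 0.000356), and NHERF1, a scaffold of ion exchangers, at 9.64 and 9.33 against 10.09 and 10.05 (adjusted p = 0.00681). BSG and NHERF1 were also lower at 4 µg than in the control, and ARL6IP5 was higher at 4 µg than at 2 µg.

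Of 15 tested subunits of the vacuolar proton pump 3 rose and 3 fell at 2 µg, 40% called against 41.6% of all tested genes, with ATP6V0A2 higher by 0.80 (adjusted p = 0.000956) and ATP6V0E1 lower, at -0.71 (adjusted p = 0.0188). At 4 µg ATP6V1B2 rose and ATP6V1F fell. Of 11 ABC transporters 1 rose and 3 fell at 2 µg, or 36.4%, again near that share. ABCB1, an exporter of drugs, rose by 0.72 (adjusted p = 0.00163), and ABCA1, the cholesterol exporter, was detected on 0 of 2 arrays at 2 µg and was at least 2.04-fold lower (adjusted p = 0.000635). ABCD3, a peroxisomal carrier of fatty acids, was lower at both amounts. Of 12 mitochondrial transport genes without an SLC symbol on the arrays, 1 rose and 3 fell at 2 µg, or 33.3%. UCP2, MTCH1 and MTCH2 among them belong to the SLC25 family by their synonyms. MCU, the calcium uniporter, rose by 0.58 (adjusted p = 0.0072), UCP2 was lower by 0.75 (adjusted p = 0.00491), which was also called at 4 µg, and SFXN3, a serine carrier, was at least 2.09-fold lower at 2 µg (adjusted p = 5.13e-05). Both tested sodium pump subunits, ATP1B1 and ATP1B3, were not called at 2 µg, and ATP1B3 rose at 4 µg against control while ATP1B1 was higher at 4 µg than at 2 µg.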
